A study of Drosophila mojavensis with 95 samples.

Results

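The 50 transcripts described here are those, of 14528 measured, whose level in the desert fruit fly Drosophila mojavensis from Punta Onah lay furthest outside the levels of 3 other populations. They were chosen from the deposited log2 values. Arrays were averaged within each group and the 6 groups of a population were averaged with equal weight. A transcript was kept where its means at 0, 9 and 18 h, over all populations, spanned less than 0.3 and where the means of the 3 other populations lay within 1.5-fold of each other; 10007 transcripts were kept. The gap is the distance from the Punta Onah mean to the nearest of the 3 other means, and the members are the 50 with the largest gap in either direction. In 44 of them Punta Onah was the highest of the 4 populations, and in 6 it was the lowest. The gaps and population means therefore describe how the members were chosen, and no p-value is given for them.

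The arrays held RNA of whole wild-type virgin females, laboratory-reared on media made with organ pipe or agria cactus and sampled after 0, 9 or 18 h of desiccation. Of the 95 one-colour arrays, 23 were of flies from Punta Onah, 25 from Organ Pipe National Monument (OPNM), 25 from Punta Prieta (PP) and 22 from San Quintin (SQ); the first pair of sites is labelled as Sonora desert and the second as Baja California. The 24 groups of population, diet and time held 3 arrays (3 groups), 4 arrays (19 groups) or 5 arrays (2 groups). No group was held for 9 or 18 h without desiccation, and no label tells whether the replicates were separate cultures, so the p-values below measure only the spread between these arrays. The stock numbers in the labels count upward from array to array and do not tell how many fly lines stand for a population.

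Drosophila mojavensis lays its eggs in rotting cactus of North American deserts, and its populations on the mainland and on the Baja California peninsula are separated by the Gulf of California and use different cacti as their main hosts. Populations of a species that exchange few migrants can come to differ in the level of many transcripts, and such differences can be there before any stress is applied. On an array, a sequence difference within a probe also changes the signal of that probe without any change in RNA amount; the part of such differences here was not tested. The rows carry FlyBase transcript identifiers, and 0 of the 14528 occur in the reference table of 15130 genes for the species. The members therefore have no gene names or functions here, markers of tissues could not be checked, and no pathway list could be formed. In whole flies, a smaller share of a tissue and less RNA per cell cannot be told apart.

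The largest gap was 1.15, or 2.23-fold, the median gap 0.47, or 1.38-fold, and the smallest 0.34, or 1.27-fold. In 9 members the gap reached 1.5-fold. The gaps were 0.35 and 0.34 at ranks 49 and 50, just inside the list, and both 0.34 at ranks 51 and 52, just outside it, so the end of the list is not a break in the data. Another 75 transcripts had a gap at least as large as that of rank 50 and were left out by the limit on time alone, the largest of them at 2.62. The limit on the 3 other populations alone left out 2 such transcripts, and both limits together left out 6. The other population nearest to Punta Onah was OPNM, also from the Sonora desert, in 19 members, PP in 17 and SQ in 14. The mean signal of a member over all arrays ran from 5.37 to 13.40 (median 10.01, against 10.29 over all transcripts), and 11 members lay in the dimmest 20% of the table and 4 in the brightest.

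**Figure D1:**
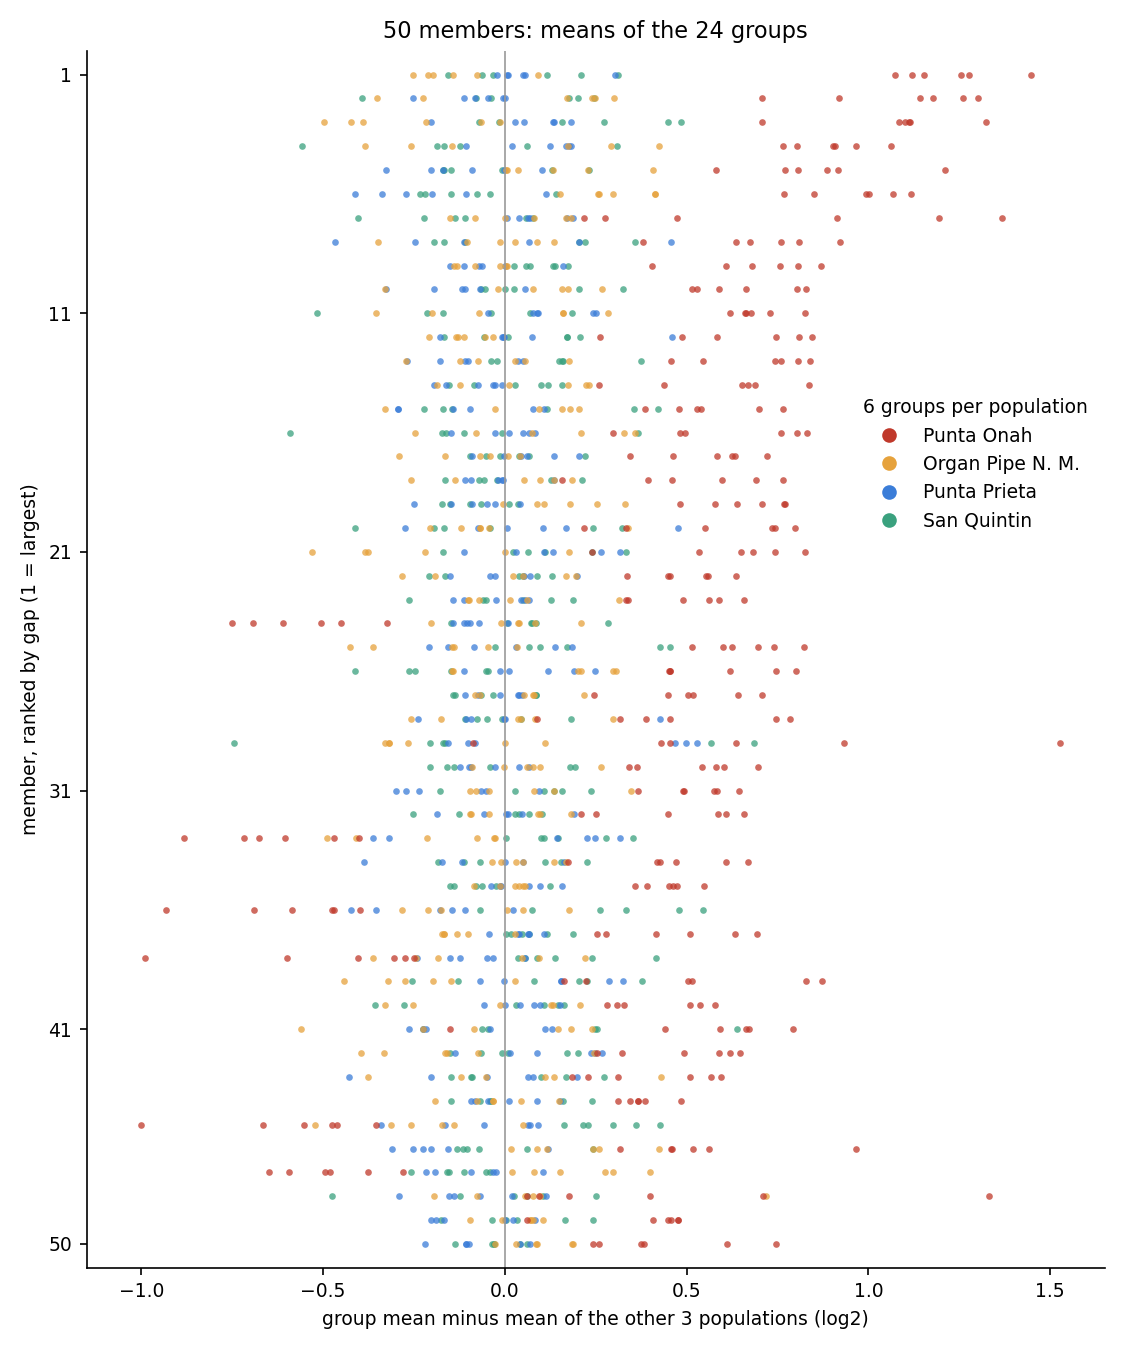
Means of the 24 groups for each of the 50 members, as log2 difference from the mean of the 3 other populations, with members ordered down the page by gap; each point is the mean of 3 to 5 arrays. The mean of the 6 Punta Onah groups lies to the right in 44 members and to the left in 6, and in 29 members each of the 6 lies beyond all 18 other groups.

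A single array stood apart from its label across the members. For each array, a position was computed in which 0 is the mean of the 3 other populations and 1 the Punta Onah mean, as the median over the 50 members. The 23 Punta Onah arrays lay between 0.64 and 1.33, with a median of 0.99. The array labelled as PP organ pipe replicate 4 at 0 h lay at 0.78, among the Punta Onah arrays, while the other arrays of its group lay between -0.31 and 0.08. The remaining 71 arrays of the 3 populations lay between -0.31 and 0.31. That array was nearer the Punta Onah mean in 39 of the 50 members. Outside the members, 63 transcripts had Punta Onah and PP means that differed by at least 1, the PP mean taken without its organ pipe group at 0 h. That array was nearer Punta Onah than PP in 61 of them, with a median position of 1.07 between PP (0) and Punta Onah (1). Each of the other 24 PP arrays was nearer Punta Onah in at most 25. The OPNM arrays were nearer Punta Onah in 36 to 56, so these transcripts do not single out Punta Onah. The array labelled PP organ pipe replicate 4 at 0 h is called the library labelled PP below. Without it, 46 of the 50 members were found again by the same rule and each member's gap was 0.978 to 1.11 times its value with all arrays. Of the 4 transcripts that entered the list in its absence, FBtr0167365 had a gap of 2.17, above that of any member. Its means at 0, 9 and 18 h spanned 0.31 with all arrays, just over the limit, and 0.25 without that library. The other population nearest to Punta Onah was then OPNM in 19 members, PP in 14 and SQ in 17.

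**Figure D2:**
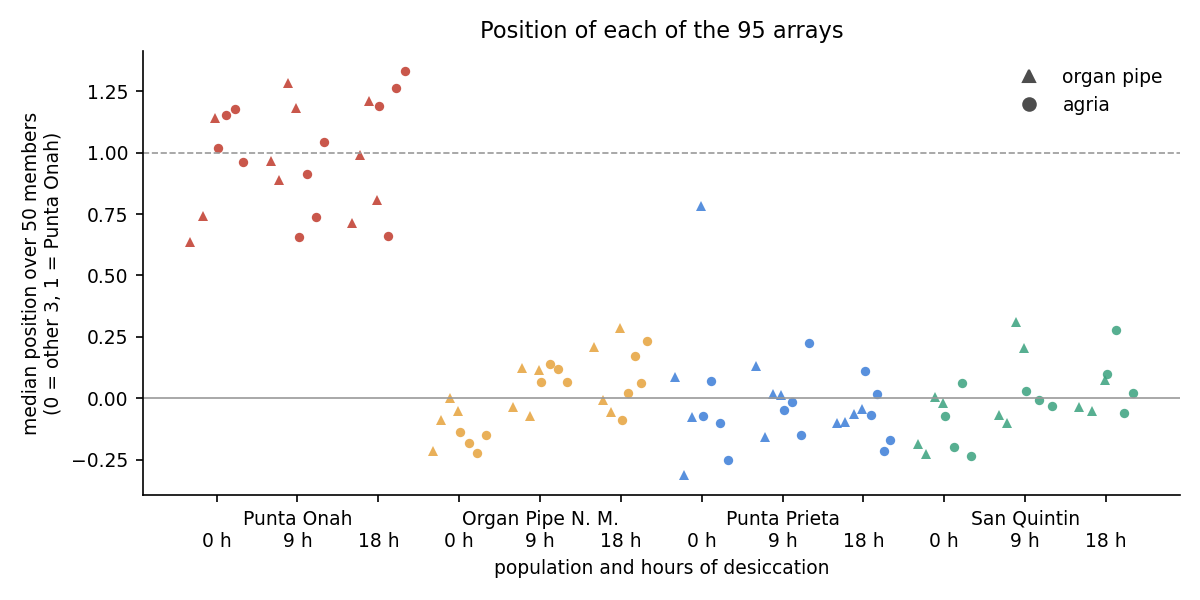
Position of each of the 95 arrays, as the median over the 50 members, by population, hours of desiccation and diet; 0 (solid line) is the mean of the 3 other populations and 1 (dashed line) that of Punta Onah. The 23 Punta Onah arrays lie between 0.64 and 1.33, and 1 array labelled PP lies at 0.78.

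According to a deposited note, 4 arrays belonged to a later order of the array design, and 3 of these are Punta Onah arrays. Their positions were 1.05 to 1.21, inside the range of the other Punta Onah arrays, and the PP array of that order lay at -0.25. Without the 4 arrays, 42 members were found again, and Punta Onah stayed on the same side of all 3 populations in all 50. For 1 of the 4 the note's position number points to a SQ array instead; with the arrays taken by position number, 41 members were found again. Leaving out any single array of the 95 moved no member's gap by more than 1.5 times (0.733 to 1.37 times) and turned the sign of none. The members were chosen for that sign in these arrays, so a kept sign carries no test.

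FBtr0167468 had the largest gap. Its 23 Punta Onah arrays ran from 10.13 to 10.98 with a median of 10.59. The arrays of the other populations had a median of 9.23 in OPNM (8.95 to 9.59), 9.38 in PP (8.82 to 10.38) and 9.45 in SQ (8.72 to 9.82). The PP value of 10.38 is the library labelled PP that stood apart, and without it no array of another population reached the lowest Punta Onah array. This was the only member without overlap between arrays once that library was left out. With it, 0 of 50 members lacked overlap, against 0% of all transcripts; without it, the count was 1 of 50, against 0.0206% of all transcripts, or 3 of 14528.

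FBtr0166055 followed with a gap of 1.02. Its Punta Onah arrays ran from 11.49 to 12.57 (median 11.94), against 10.38 to 11.70 (median 10.99) in OPNM, 10.46 to 11.72 (median 10.69) in PP and 10.32 to 11.47 (median 10.82) in SQ. Only 3 arrays of the other populations lay within the Punta Onah range, and the highest of these was again the library labelled PP. The members at ranks 3 to 6 had gaps of 0.86, 0.81, 0.73 and 0.67. Rank 6 overlapped as few arrays as rank 2: without the library labelled PP, 2 of the 71 other arrays lay inside the Punta Onah range of each. At rank 6 the Punta Onah arrays ran from 9.46 to 10.25, against at most 9.49 in the 71 other arrays. Rank 4 overlapped far more, with Punta Onah arrays from 9.11 to 10.54 and 34 of the 71 other arrays inside that range. A large gap between means thus did not always go with separate arrays.

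Punta Onah was lowest in 6 members, with gaps of -0.47 to -0.35. FBtr0173069 had the largest of these gaps. Its Punta Onah arrays ran from 9.93 to 10.95 (median 10.37), against 10.23 to 11.31 (median 10.88) in OPNM, 10.28 to 11.41 (median 10.73) in PP and 10.50 to 11.25 (median 10.96) in SQ. The arrays overlapped, while all 6 Punta Onah group means lay below all 18 others. FBtr0161656 had a gap of -0.42, with Punta Onah arrays from 9.51 to 11.17 (median 10.72), against medians of 11.13 in OPNM, 11.41 in PP and 11.48 in SQ. A single Punta Onah array gave the 9.51, organ pipe replicate 2 at 18 h. The lower member at rank 47 was dim and spread widely in Punta Onah: its arrays there ran from 5.65 to 8.25, a range that held all 71 other arrays, and its SD within groups was 0.546 in Punta Onah and 0.272 in the others.

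**Figure D3:**
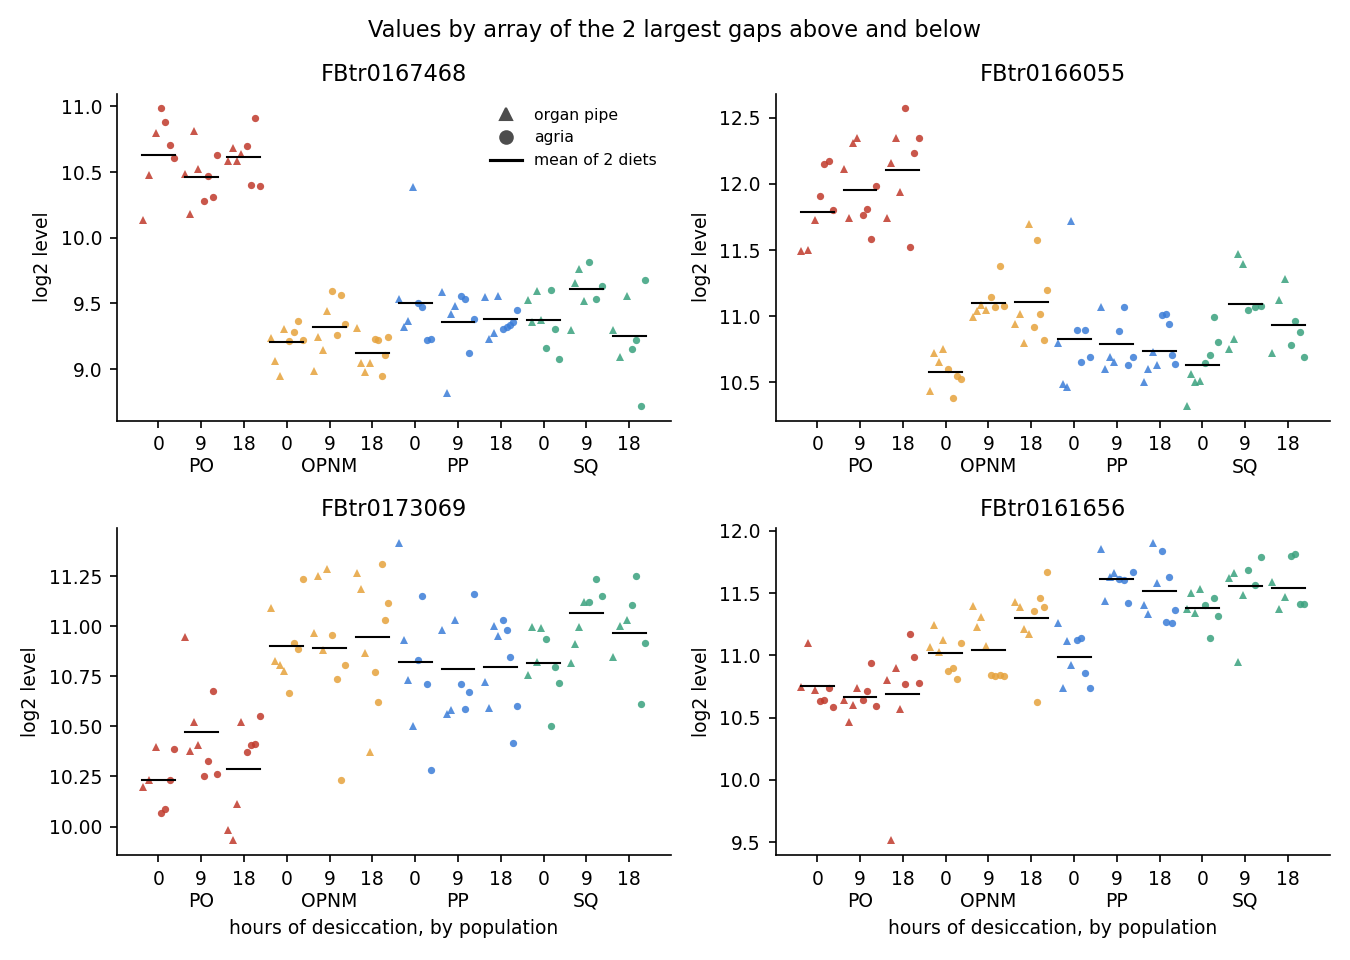
Log2 level in each array of the 2 members with the largest gap above and the 2 with the largest gap below the other populations, by population (PO, Punta Onah) and hours of desiccation; triangles are organ pipe, circles agria, and lines the mean of the 2 diets. Only for FBtr0167468 do the Punta Onah arrays, at 10.13 or more, stand clear of all but 1 other array.

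Over the 50 members, a median of 28 of the 71 other arrays reached or passed the Punta Onah array nearest to the other populations. That array is the lowest one where Punta Onah was highest, and the highest one where it was lowest. At most 5 of the other arrays did so in 7 members, and in 18 members most of them did. In 29 of the 50 members all 6 Punta Onah groups lay beyond all 18 other groups, against 0.351% of all transcripts, or 51. Without the library labelled PP the members were 31, against 0.372% of all transcripts, or 54. Within each of the 6 combinations of diet and time, Punta Onah lay beyond all 3 populations in 6 of 6 combinations for 41 members, in 5 for 7 members, in 4 for 1 member and in 3 for 1 member. Over all transcripts, Punta Onah lay beyond all 3 populations in 6 of 6 combinations in 1.96%, in exactly 5 in 3.56%, in 4 in 8.72% and in 3 in 24.8%. At 0, 9 and 18 h taken alone, Punta Onah lay beyond the others in 49 members each, against 28.6%, 35.8% and 58.6% of all transcripts at 0, 9 and 18 h. At all 3 times it did so in 47 members, against 7.39% of all transcripts. The direction is that of the difference between Punta Onah and the mean of the other 3, and the counts of members by combination and by time were the same without the library labelled PP. The choice of members used the same values, so nothing is read from these counts.

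Arrays of the same group differed somewhat more in the members than in the table as a whole. The median SD within groups was 0.244 in Punta Onah (17 degrees of freedom) and 0.240 in the other populations (54 degrees of freedom), or 0.221 in the others without the library labelled PP. Over all transcripts the medians were 0.187 in Punta Onah and 0.203 in the others. Without that library, the SD was larger in Punta Onah than in the others in 26 of the 50 members, against 40.5% of all transcripts. The rule that chose the members sets no limit on spread. Ranking by gaps between means can favour transcripts with more spread, and its part here was not tested.

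A few members spread widely in Punta Onah. At ranks 8, 12, 20 and 28 were 4 very dim members, with mean signals of 5.37 to 5.88, all below the first percentile of the table. Their SD within groups was 0.621 to 0.797 in Punta Onah and 0.387 to 0.595 in the others. The member at rank 12 ran from 5.07 to 7.98 (median 6.04) over the Punta Onah arrays, and from 4.98 to 7.10 (median 5.40) over the others. The member at rank 28 ran from 4.71 to 6.84 (median 5.63) in Punta Onah, a range that held all 72 other arrays. These 4 moved together within groups: over 94 arrays, without the library labelled PP, the 6 pairs correlated at r = 0.70 to 0.83 in their deviations from the group means. How far such dim signals lie above background was not measured.

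The members at ranks 29 and 48 were high in single arrays of several populations. At rank 29 the highest Punta Onah array had 12.99, against 10.56 for the median Punta Onah array, 12.13 for the highest array of the other populations and 10.00 for their median. At rank 48 the highest Punta Onah array had 10.60 and the median 8.28, against 11.16 and 8.08 in the other populations. The highest Punta Onah array was the same for both, organ pipe replicate 2 at 0 h, and so was the highest other array, OPNM organ pipe replicate 3 at 0 h. Their deviations from the group means correlated at r = 0.76 over 94 arrays. Without the Punta Onah array named, the gaps fell to 0.35 and 0.26, against 0.46 and 0.35 with it. Among all 1225 pairs of members the median r was 0.13 (-0.74 to 0.85), and 10 pairs, of 13 members, exceeded 0.7. The highest r was that of ranks 5 and 43, at 0.85, and the lower members at ranks 38 and 45 followed at 0.84. The members thus did not vary as 1 group from array to array. Arrays and probes share hybridisation and normalization, so these correlations carry no test.

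The first tested question was whether the distance of Punta Onah from the other populations changed with desiccation. The measure is the change in Punta Onah from one time to another minus the mean of the same change in the other 3 populations, with diets weighted equally. With equal numbers of arrays in all groups, its errors would be uncorrelated with those of the population and time differences used to choose the members. As the groups hold 3 to 5 arrays, the sampling errors of the tested contrasts and of those differences correlated at -0.0495 to 0.0458, so the independence is approximate. Between 18 and 0 h the difference passed the threshold in 6 of the 50 members (12%; limma, Benjamini-Hochberg adjusted p under 0.05 over all transcripts), against 19.0% of all transcripts, or 2755. The members had passed the limit of 0.3 on the time means, which bounds how far Punta Onah alone can change. Nothing is therefore read from the members' share, here or in the other time comparisons. The difference was positive in 1 of the 6 (12.6% of all transcripts) and negative in 5 (6.35%). In 2 of the 6 the distance widened and in 4 it narrowed. The median distance over the 50 members, in absolute log2 units, was 0.61 at 0 h, 0.49 at 9 h and 0.58 at 18 h. The median 95% interval of a member's difference reached 0.278 to either side.

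FBtr0166864 widened most. Its Punta Onah means were 8.70 at 0 h (7 arrays, 8.17 to 9.08), 9.01 at 9 h (8 arrays, 8.46 to 9.44) and 9.36 at 18 h (8 arrays, 9.12 to 9.75). At 0 h the Punta Onah arrays overlapped those of PP (mean 8.81, 8.26 to 9.34), and at 18 h all of them exceeded the highest array of any other population at that time, 9.02. The changes from 0 to 18 h were 0.66 in Punta Onah, 0.21 in OPNM, -0.23 in PP and 0.00 in SQ. The tested difference was 0.66 ± 0.178 (SE; limma adjusted p = 0.0127). It stayed past the threshold when any single array was left out (0.57 to 0.72). In a fit without the shared axis of within-group spread, described below, it was 0.24 (adjusted p = 0.153).

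FBtr0171884 narrowed most of the named members. Its Punta Onah means were 11.15, 10.80 and 11.12 at 0, 9 and 18 h, against 9.95, 10.11 and 10.50 in OPNM, 10.37, 10.53 and 10.70 in PP and 10.36, 10.48 and 10.70 in SQ. At 0 h the lowest Punta Onah array, 10.84, exceeded every other array at that time but the library labelled PP, at 11.08. The changes from 0 to 18 h were -0.03 in Punta Onah and 0.55, 0.33 and 0.34 in OPNM, PP and SQ. The tested difference was -0.43 ± 0.136 (SE; limma adjusted p = 0.0258). The adjusted p was 0.0654 without Punta Onah agria replicate 2 at 18 h and 0.0805 without Punta Onah organ pipe replicate 3 at 0 h.

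FBtr0171819, a dim member and the last by gap, narrowed too. Its Punta Onah means were 7.02 at 0 h (7 arrays, 6.69 to 7.84), 6.65 at 9 h (8 arrays, 6.46 to 6.95) and 6.66 at 18 h (8 arrays, 6.49 to 6.88), while the means of the other populations lay between 6.24 and 6.48 at all 3 times. The tested difference was -0.40 ± 0.143 (SE; limma adjusted p = 0.0409). The 7.84 is Punta Onah agria replicate 4 at 0 h, without which the difference was -0.28 (adjusted p = 0.156). Leaving out any of 11 other arrays also ended the call, at adjusted p of at most 0.0861. These were Punta Onah agria replicates 1 and 2 at 18 h, Punta Onah organ pipe replicates 1 and 3 at 0 h and 1, 2 and 4 at 18 h, OPNM agria replicate 3 at 0 h, PP organ pipe replicate 2 at 0 h, and SQ organ pipe replicate 2 at 0 and at 18 h.

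FBtr0161656, in which Punta Onah was lowest, moved further below the others. Its Punta Onah means were 10.75, 10.67 and 10.69 at 0, 9 and 18 h, against 11.02, 11.05 and 11.30 in OPNM, 10.99, 11.61 and 11.51 in PP and 11.38, 11.55 and 11.54 in SQ. The changes from 0 to 18 h were -0.07 in Punta Onah, against 0.28, 0.53 and 0.16 in the others in that order. The tested difference was -0.39 ± 0.136 (SE; limma adjusted p = 0.0378). Without Punta Onah organ pipe replicate 2 at 18 h, the low array named above, it was -0.23 (adjusted p = 0.182). It also missed the threshold without Punta Onah agria replicate 3 (adjusted p = 0.0514) or 4 (0.0679) at 0 h, replicate 1 (0.0696) or 4 (0.0574) at 18 h, or Punta Onah organ pipe replicate 2 at 0 h (0.103). The other 2 called members, at ranks 37 and 40, narrowed by smaller amounts, -0.29 (limma adjusted p = 0.0468) and -0.24 (adjusted p = 0.0487), and lost their calls without any of 33 and 55 of the 95 arrays, at adjusted p of at most 0.114 and 0.118.

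**Figure D4:**
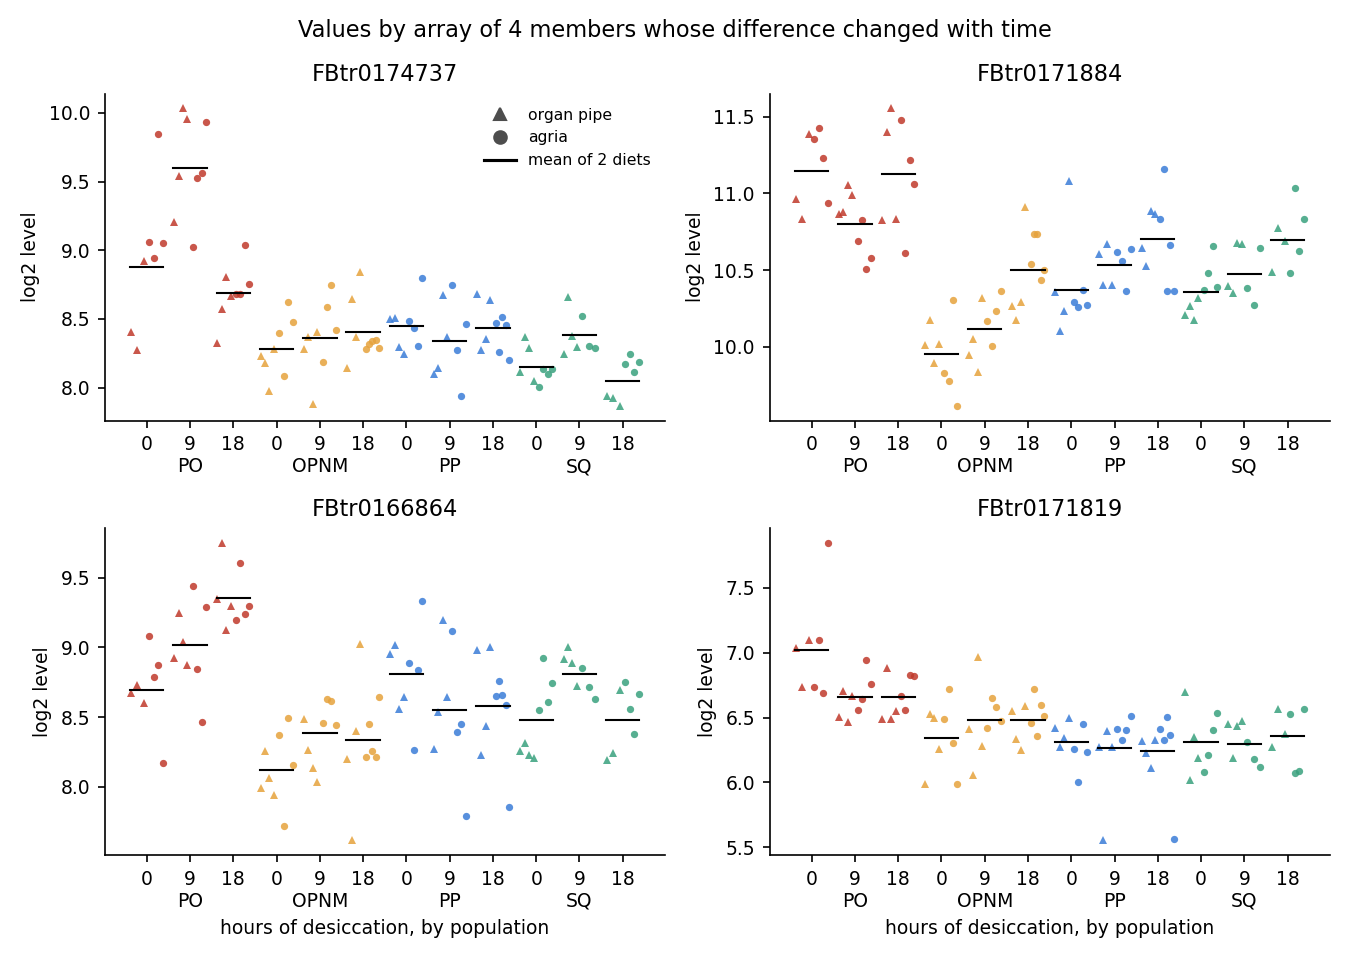
Log2 level in each array of the 4 members named for a tested change of the Punta Onah distance with time, by population and hours of desiccation; triangles are organ pipe, circles agria, and lines the mean of the 2 diets. FBtr0174737 is highest in Punta Onah at 9 h (mean 9.60), FBtr0166864 at 18 h (9.36), and FBtr0171819 at 0 h (7.02), while in FBtr0171884 the other populations are higher at 18 h than at 0 h.

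Between 9 and 0 h, 1 of the 50 members passed the threshold (2%), against 0.324% of all transcripts, or 47; it was positive, as in 0.0551% of all, while 0.268% were negative. This was FBtr0174737, the seventh by gap. Its Punta Onah means were 8.88 at 0 h (7 arrays, 8.27 to 9.85), 9.60 at 9 h (8 arrays, 9.02 to 10.03) and 8.69 at 18 h (8 arrays, 8.32 to 9.04). The other populations stayed between 8.04 and 8.45 in their means at all 3 times. At 9 h every Punta Onah array exceeded every array of the other populations, whose highest was 8.75, and at 0 and 18 h the arrays overlapped. The distance from the other populations was 0.59, 1.24 and 0.40 at 0, 9 and 18 h. The tested difference was 0.65 ± 0.138 between 9 and 0 h (SE; limma adjusted p = 0.0104) and -0.84 ± 0.133 between 18 and 9 h (adjusted p = 5.31e-05). It was the only member of 50 (2%) called between 18 and 9 h, against 3.65% of all transcripts, or 530, of which 1.42% of all were positive and 2.23%, like this member, negative. Without Punta Onah organ pipe replicate 2 at 0 h, the difference between 9 and 0 h was 0.58 (adjusted p = 0.0740); the difference between 18 and 9 h stayed past the threshold whichever single array was left out. On the organ pipe arrays alone both calls remained, and on the agria arrays alone the difference between 9 and 0 h was 0.21 (adjusted p = 1.00) and that between 18 and 9 h was -0.61 (adjusted p = 0.285). The highest array at 0 h, 9.85, was from the later order of the array design; without the 4 arrays of that order the differences were 0.66 (adjusted p = 0.00578) and -0.81 (adjusted p = 5.6e-05).

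The counts of calls by time changed when an axis of spread shared by the arrays was removed, and not all in the same direction. The first component of the deviations of arrays from their group means held 41.8% of the variance within groups. The mean score on it was 18.4 ± 13.5, -4.80 ± 17.3 and -25.8 ± 18.8 in Punta Onah at 0, 9 and 18 h (SD; n = 7, 8 and 8), against 12.3 ± 21.2, -4.23 ± 18.5 and -3.29 ± 21.6 in the other populations (SD; n = 24, 23 and 25). With this axis removed, 469 transcripts and 3 members were called between 18 and 0 h, and 1 of the 3 members was among the 6. Between 9 and 0 h, 61 transcripts and 2 members were then called, against 47 and 1 with the axis kept. Between 18 and 9 h there were 357 and 2, against 530 and 1. The mean score changed with time in Punta Onah, so the removal also takes out any change with time along the axis. Leaving out any single array gave 2 to 7 called members, against 670 to 4049 of all transcripts. The count was 2 without Punta Onah agria replicate 4 at 0 h or replicate 1 or 2 at 18 h, or without Punta Onah organ pipe replicate 3 at 0 h or replicate 2 at 18 h. It was 3 without Punta Onah organ pipe replicate 2 at 0 h or replicate 1 or 4 at 18 h, OPNM agria replicate 3 at 0 h, PP organ pipe replicate 2 at 0 h, or SQ organ pipe replicate 2 at 0 or 18 h. Without the library labelled PP, 7 members were called between 18 and 0 h, the 6 among them, against 2936 of all transcripts. Between 9 and 0 h, 2 members were called, against 55 of all transcripts, and between 18 and 9 h, 1 member, against 555. The named differences between 18 and 0 h were then 0.67 for FBtr0166864 (limma adjusted p = 0.0116), -0.47 for FBtr0171884 (0.0131), -0.41 for FBtr0171819 (0.0381) and -0.38 for FBtr0161656 (0.0392). FBtr0174737 differed by 0.66 between 9 and 0 h (adjusted p = 0.00732) and by -0.84 between 18 and 9 h (6.06e-05).

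The second tested question was whether the distance of Punta Onah from the other populations differed between the host cacti. It did not pass the threshold in any member or in any transcript of the table (0 of 50, against 0% of all transcripts; smallest limma adjusted p = 0.558). At an unadjusted p under 0.05 there were 9 members and 1172 transcripts, and with array weights in the fit 0 members and 4 transcripts were called. The median distance was 0.55 on organ pipe and 0.58 on agria, and 0.57 and 0.58 without the library labelled PP. The signed difference, organ pipe minus agria, was negative in 40 of 50 members and positive in 10, with a median of -0.08 against 0.02 over all transcripts. The members share arrays, so this count carries no test. The median 95% interval of a member's difference reached 0.226 to either side. The mean axis score was -10.1 on organ pipe and -0.42 on agria in Punta Onah, and 4.99 on organ pipe and -1.58 on agria in the others.

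Inside Punta Onah, organ pipe and agria flies also showed no called member (0 of 50, against 0% of all transcripts; smallest limma adjusted p = 0.995 in the members and 0.129 over all). At an unadjusted p under 0.05 there were 4 members and 326 transcripts. The member with the largest diet difference was the one at rank 29, already described for its single high arrays, with 0.63 ± 0.289 (SE; limma adjusted p = 0.995). The distance of Punta Onah in that member was 0.99 on organ pipe and 0.31 on agria. FBtr0167468 stood 1.18 above the mean of the others on organ pipe and 1.26 on agria, and FBtr0166055 stood 1.06 and 1.11 above it. The choice of members used the arrays of both diets, so nothing is read from a distance being present on each. The lowest distance of any member was 0.26 on organ pipe and 0.29 on agria.

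**Figure D5:**
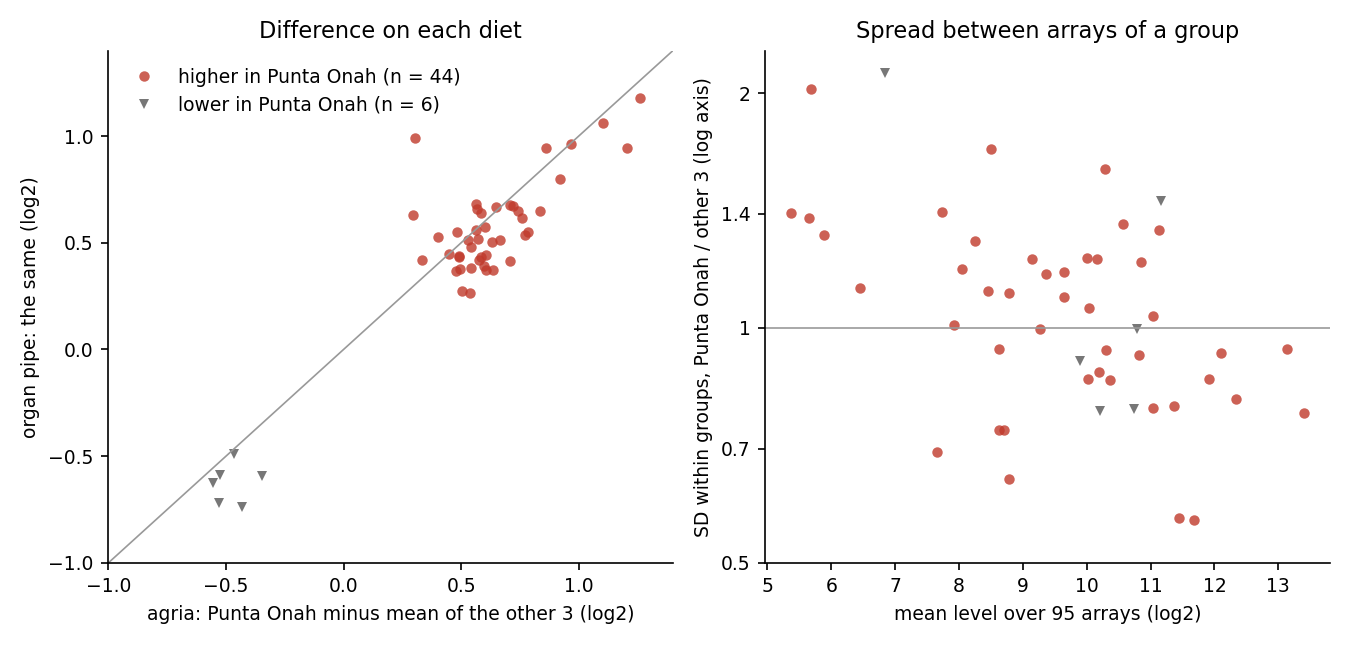
Left, log2 difference of Punta Onah from the mean of the other 3 populations in each member, on organ pipe (vertical) against agria (horizontal), with the line of equality; no member was called for a diet difference, and 40 of 50 lie below the line. Right, ratio of the SD within groups in Punta Onah to that in the other populations (log axis, without the library labelled PP that lies at 0.78) against the mean log2 level of the member over 95 arrays.

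The same rule, applied with each other population in the place of Punta Onah, also returns 50 transcripts, so a list of this length is no property of Punta Onah. The direction and size of its gaps can be set beside those of the others, with no test. With Punta Onah, 44 were higher and 6 lower, with a median gap of 0.47 and a fiftieth gap of 0.34. With OPNM, 29 were higher and 21 lower, with a median of 0.33 and a fiftieth gap of 0.27. The largest gap was 1.35 with OPNM and 1.15 with Punta Onah. Without the library labelled PP, it was 1.35 with OPNM and 2.17 with Punta Onah. With PP, 18 were higher and 32 lower, with a median of 0.28 and a fiftieth gap of 0.23; without the library labelled PP, 17 were higher and 33 lower, and the fiftieth gap was 0.25. With SQ, 38 were higher and 12 lower, with a median of 0.35 and a fiftieth gap of 0.30. Punta Onah thus had the largest median and fiftieth gap of the 4. Of the 50 members, 3 also stood in the list of OPNM, 0 in that of PP and 2 in that of SQ. Without the library labelled PP, these counts were 1, 0 and 2.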

How the data were processed

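The deposited table holds log2 values per transcript and array, which the authors made with RMA (robust multi-array average), per the submitters' processing notes; its version and settings are not given in the sources used here. RMA summarises the probes of a transcript after background correction and normalization between arrays, so signals of different transcripts are not amounts of RNA and low signals are compressed. The columns of all 95 arrays were matched to samples by the sample identifier that names each column, and the titles gave population, diet, time and replicate. No 2 arrays were identical. The number of arrays limits the precision.

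The package limma 3.58.1 (R 4.3.3) fitted the means of all 24 groups, leaving 71 residual degrees of freedom. Neither covariates nor a block or filter entered the fit. The errors of the 5 tested contrasts were nearly uncorrelated with those of the differences used to choose the members. The limit on time still bounds the changes with time that a member can show. Tests were two-sided, with Benjamini-Hochberg adjustment over 14528 transcripts and calls at an adjusted p under 0.05. The fit was tested on simulated data with independent spread in each transcript, so without the shared axis. For 18 against 0 h it recovered 14%, 58%, 98% and 98% of changes of 0.25, 0.5, 0.75 and 1. It called 9 unchanged transcripts. For the distance by diet it recovered 38%, 74%, 98% and 98%, and called 7 unchanged transcripts. Correlations and within-group deviations were computed in Python 3.11.15. The members and lists were chosen with earlier results of these data known. Members named by identifier are the 2 largest gaps above and below, and for each test the 2 largest called differences in each direction; other members are given by gap rank.

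Alternatives were centring arrays on their median, quantile normalization, group medians, removal of the shared axis, array weights, a variance trend, a replicate block, a filter on the dimmest 20%, each diet alone, and leaving out replicates, the arrays of a later order or the array near Punta Onah. The arrays of the later order by position number, Punta Prieta organ pipe replicate 4 alone, and each single array were added after seeing the data.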

Additional observations from a re-analysis of the deposited data

Results flagged for a closer look

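In 8 results the change of Punta Onah with time differed from the mean change of the other 3 populations by a test of the difference itself (limma adjusted p under 0.05). Between 18 and 0 h these were 0.66 for FBtr0166864, -0.43 for FBtr0171884, -0.40 for FBtr0171819, -0.39 for FBtr0161656, and -0.29 and -0.24 for the members at ranks 37 and 40. FBtr0174737 differed by 0.65 between 9 and 0 h and by -0.84 between 18 and 9 h. None of the 6 calls between 18 and 0 h held under every alternative; with single left-out arrays set aside, 13 of 18 alternatives kept that of FBtr0166864, 12 of 18 that of FBtr0171884, 10 of 17 that of FBtr0171819, 10 of 18 that of FBtr0161656, 10 of 18 that of rank 37 and 5 of 18 that of rank 40. For FBtr0174737, 15 of 18 kept the call between 9 and 0 h and 17 of 18 that between 18 and 9 h. The call between 9 and 0 h was lost without replicate 2 of every group (0.57, adjusted p = 0.539), without replicate 4 (0.50) and on agria arrays alone. No setting on 1 diet alone kept any of the 6 calls between 18 and 0 h.

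A single array lay far from the others of its group, by Dixon's criterion, in 8 of 189 sets of values. Chance marks about 1 in 20. The sets were the levels of the named members and the median positions of the arrays, by group, and all 8 were levels of members. FBtr0174737 had 9.85 in Punta Onah agria replicate 3 at 0 h, an array of the later order of the design, against 8.95 to 9.06 in the rest of its group. FBtr0171819 had 6.88 in Punta Onah organ pipe replicate 2 at 18 h, 5.57 in Punta Prieta agria replicate 5 at 18 h, 5.55 in Punta Prieta organ pipe replicate 2 at 9 h and 6.19 in San Quintin organ pipe replicate 2 at 9 h. The same Punta Prieta agria array had 7.85 for FBtr0166864, against 8.59 to 8.76 in the rest of its group. FBtr0171884 had 10.91 in Organ Pipe National Monument organ pipe replicate 4 at 18 h, and FBtr0173069 had 11.09 in organ pipe replicate 1 of that population at 0 h.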

How the results depend on the processing

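The direction of Punta Onah held in all 50 members under each of 15 alternatives. The members were chosen for that direction in these same arrays, so nothing is read from its holding. The list changed: 30 members were found again on organ pipe arrays alone, 36 on agria arrays alone and 37 to 47 under the other alternatives. Between 18 and 0 h, 6 members and 2755 of all transcripts were called as reported. With arrays centred on their median the counts were 3 and 2986, with the shared axis removed 3 and 469, and with array weights 10 and 3793. On agria alone they were 0 and 56, and on organ pipe alone 0 and 254. With a replicate number left out they were 0 to 6 and 5 to 3007, and with a single array left out 2 to 7 and 670 to 4049. Between 9 and 0 h, 1 member and 47 transcripts were called as reported, 2 and 61 with the axis removed, and 4 and 243 with array weights. With a replicate number left out the counts were 0 to 2 and 4 to 48, and with a single array left out 0 to 2 and 21 to 55. Between 18 and 9 h, 1 member and 530 transcripts were called as reported, 2 and 357 with the axis removed, and 5 and 968 with array weights. On agria alone the counts were 0 and 17. Without the arrays of the later order they were 5 and 1586 (3 and 793 by position number). With a replicate number left out they were 1 to 5 and 41 to 1846, and with a single array left out 1 to 3 and 146 to 1138. With single left-out arrays set aside, the 3 counts over all transcripts ran from 5 to 3793, 1 to 243 and 17 to 1846. The lowest for 18 against 0 h was without replicate 2. No diet comparison called a member under any alternative, and no named value changed sign. With the replicate number as a block, 5, 1 and 1 members were called in the 3 time comparisons, against 2233, 44 and 394 of all transcripts. In both diet comparisons 0 members were called. Over pooled pairs of arrays, the median r was -0.01 between same-numbered arrays (-0.89 to 0.79) and 0.00 between others (-0.84 to 0.84). A pooled median cannot tell whether some of the same-numbered arrays were paired. FBtr0171819 is absent where the dimmest 20% is filtered out. How far dim signals lie above background was not measured, which limits the dimmest members most. The causes of these movements were not tested.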
